A study of Mus musculus with 9 samples.

Results

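The respiratory chain and ATP synthase genes were described in liver RNA of leptin-deficient mice that received vehicle or VE, a rice bean (Vigna umbellata) extract. Genes were taken from the authors' array sheet by symbol, as those with a single symbol starting with Nduf, Sdha to Sdhd, Uqcr, Cox4 to Cox8 or Atp5, with the probe set of highest mean over the 9 arrays kept for each. This gave 96 genes of 21130 with a single symbol. Complex I had 45 (31 accessory subunits, 7 core subunits and 7 assembly factors of the Ndufaf series), complex II 8 (4 subunits and the assembly factors Sdhaf1 to Sdhaf4) and complex III 8. Complex IV had 18 (10 subunits, 7 isoforms of restricted tissue expression and the supercomplex factor Cox7a2l), and complex V had 17. Assignment followed the symbol, so Ndufa4, a protein now assigned to complex IV, was counted with complex I. Subunits encoded in mitochondrial DNA, and cytochrome c, do not carry these symbols and were not members.

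The respiratory chain passes electrons from NADH (complex I) or succinate (complex II) to ubiquinone, on through complex III and cytochrome c, and to oxygen at complex IV. Complexes I, III and IV move protons across the inner mitochondrial membrane, and complex V, the ATP synthase, uses their return to make ATP. Hepatocytes are rich in mitochondria, and the chain there reoxidises the cofactors reduced by fatty acid oxidation and the citric acid cycle.

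Liver RNA was measured on 9 Clariom S arrays, all of it from male C57BL/6JHamSlc-ob/ob mice, which lack leptin and become obese. The mice were 6 weeks old when obtained, had 1 week of acclimatization and ate standard chow. One group received vehicle, one VE at 50 mg/kg (VE50) and one VE at 100 mg/kg (VE100), by gavage for 42 days, with 3 arrays in each group. The ob/ob background was shared by all groups, and the wild-type mice of the study's design were not analysed here. The labels number the arrays as replicates without stating that each came from its own animal, so p-values measure the spread between these arrays, which may be technical. Values are the authors' log2 signal, so differences between groups are log2 fold changes, and the level of one probe set cannot be set against that of another. In whole liver, fewer cells of a type and less RNA per cell cannot be told apart.

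Of the 96 genes, 74 exceeded, on at least 3 arrays, the level below which 95% of the 5222 negative controls fell, against 4197 of all 22206 probe sets. The 22 others were the 7 restricted isoforms of complex IV, all 4 Sdhaf genes, Ndufaf2, Ndufaf3, Ndufaf5, Ndufaf6, Ndufaf7, Ndufa4l2, Ndufa7, Ndufv3, Atp5k, Atp5s and Atp5sl. Vehicle array 3 stood apart from the rest. Its correlation with the other arrays over all probe sets was 0.948 to 0.967, against 0.974 to 0.99 among the other 8. All 7 hepatocyte markers found on the array were above the negative controls, and their median signal ran from 18.44 to 19.35 across the 9 arrays. Results are therefore given with all 9 arrays, and the counts and calls against vehicle also without vehicle array 3, an array for which the sources used here give no reason for exclusion.

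Promoter windows of 6 genes described below are shown first, and the expression results do not rest on these sequences. In Ndufb3, Ndufb7 and Uqcrh all 6 VE arrays lay on one side of all 3 vehicle arrays. Uqcrb also did so but had no promoter entry. Sdha passed the study's threshold downward at 50 mg/kg, Atp5j upward at 100 mg/kg and Cox6a1 downward between the doses. Each window runs 5′ to 3′ from 170 bases before to 30 bases after the annotated start (RefSeq, GRCm38.p6), with capitals marking matches to the motifs named after the sequences.
Ndufb3 (chr1:58586227-58586426, plus strand): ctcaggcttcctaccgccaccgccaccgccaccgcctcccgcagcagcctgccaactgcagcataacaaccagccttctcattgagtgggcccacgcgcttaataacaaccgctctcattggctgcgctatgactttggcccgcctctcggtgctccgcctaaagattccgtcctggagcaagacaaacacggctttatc
Ndufb7 (chr8:83566588-83566787, plus strand): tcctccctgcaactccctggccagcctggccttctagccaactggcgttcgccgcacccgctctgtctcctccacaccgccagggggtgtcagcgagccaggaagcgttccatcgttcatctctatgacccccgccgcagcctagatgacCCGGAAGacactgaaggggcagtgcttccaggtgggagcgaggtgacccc
Uqcrh (chr4:116075041-116075240, minus strand): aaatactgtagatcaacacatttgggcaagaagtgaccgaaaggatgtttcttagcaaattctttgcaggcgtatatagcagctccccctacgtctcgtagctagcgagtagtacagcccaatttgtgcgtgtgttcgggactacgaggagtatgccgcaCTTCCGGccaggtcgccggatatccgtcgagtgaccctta
Sdha (chr13:74350211-74350410, minus strand): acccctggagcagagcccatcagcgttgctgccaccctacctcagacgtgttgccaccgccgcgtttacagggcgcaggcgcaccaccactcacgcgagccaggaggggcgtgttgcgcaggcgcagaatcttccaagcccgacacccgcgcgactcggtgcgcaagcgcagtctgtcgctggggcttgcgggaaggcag
Cox6a1 (chr5:115348929-115349128, minus strand): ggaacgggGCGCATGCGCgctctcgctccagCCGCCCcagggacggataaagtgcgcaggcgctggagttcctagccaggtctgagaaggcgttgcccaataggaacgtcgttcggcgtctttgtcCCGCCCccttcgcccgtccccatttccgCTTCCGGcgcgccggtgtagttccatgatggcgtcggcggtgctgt
Atp5j (chr16:84834947-84835146, minus strand): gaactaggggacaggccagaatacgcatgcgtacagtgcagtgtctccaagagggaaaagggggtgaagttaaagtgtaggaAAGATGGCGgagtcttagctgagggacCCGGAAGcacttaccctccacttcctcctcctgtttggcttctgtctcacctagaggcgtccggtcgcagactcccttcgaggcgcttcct

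All 96 genes matched a RefSeq gene and 80 had a promoter entry of 300 bases, which was searched on both strands for 4 motifs bound by factors known to act on nuclear genes of the respiratory chain. The NRF1 letters GCGCATGCG were present in 10 of the 80 (12.5%), against 2.61% of 17492 protein-coding genes. The ETS letters CCGGAAG, bound by GABPA among others, were in 20 (25%) against 12.9%, and the YY1 letters AAGATGGCG were in 8 (10%) against 2.14%. The Sp1 letters GGGCGG were in 38 (47.5%) against 49.2%. The Cox6a1 window holds NRF1, ETS and Sp1 letters, and its NRF1 letters match on both strands 1 base apart. The Atp5j window holds YY1 and ETS letters, and those of Ndufb7 and Uqcrh hold ETS letters. No match was found in the windows of Ndufb3 and Sdha. A match describes letters in these windows and is no measure of binding.

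Across the 96 genes, differences between extract and vehicle were small and ran in both directions. The study called a gene changed when its p, without adjustment, was under 0.05 and its fold change over 1.1, and this is the criterion used here. At 50 mg/kg, 6 genes were higher and 2 lower by it (limma), against 3.31% and 2.8% of all probe sets. At 100 mg/kg, 7 were higher and 2 lower, against 5.11% and 4.37%. The 8 of 96 at 50 mg/kg are 8.33% against 6.12% of all probe sets, and the 9 at 100 mg/kg are 9.38% against 9.48%. Among the genes above the negative controls the shares were 9.46% and 10.8%, against 8.29% and 14% of such probe sets. None of the 96 passed an adjusted p under 0.05 (limma, Benjamini-Hochberg over all probe sets) at either dose, where the background was 0% in both comparisons. The smallest adjusted p among them was 0.794 at 50 mg/kg and 0.319 at 100 mg/kg.

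The median log2 difference of the 96 genes was 0.10 at 50 mg/kg, with 57 above 0, and 0.01 at 100 mg/kg, with 48 above 0. The median of all probe sets was -0.01 in both. At 50 mg/kg the arrays did not overlap those of vehicle for 5 genes upward and 2 downward, against 6.16% and 4.69% of all probe sets. At 100 mg/kg this held for 6 upward and 5 downward, against 7.47% and 6.08%. The shares among the 96 genes, 5.21% and 2.08% at 50 mg/kg and 6.25% and 5.21% at 100 mg/kg, were below the background in every case.

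The counts rose when vehicle array 3 was left out. By the study's criterion 19 genes were then higher and 4 lower at 50 mg/kg, against 5.95% and 7.52% of all probe sets. At 100 mg/kg 22 were higher and 7 lower, against 6.99% and 9.62%. Among the genes above the negative controls, 24.3% were higher and 5.41% lower at 50 mg/kg, against 10.3% and 16.5% of such probe sets. At 100 mg/kg 27% of them were higher and 9.46% lower, against 10.2% and 20.2%. In both directions together the shares were 29.7% and 36.5%, against 26.9% and 30.4% of such probe sets. At an adjusted p under 0.05 none passed at 50 mg/kg (0.045% of all probe sets) and 8 passed at 100 mg/kg (1.95%). Those 8 were Ndufs5, Ndufaf2, Ndufb7, Ndufa5, Ndufs4 and Atp5h upward, and Sdha and Sdhc downward, and Ndufa5, Ndufs4 and Sdhc are named here after their values were seen. The median difference became 0.16 and 0.19, against 0.02 and 0.03 for all probe sets. These counts rest on 2 vehicle arrays and on leaving out an array after its values were seen.

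**Figure D1:**
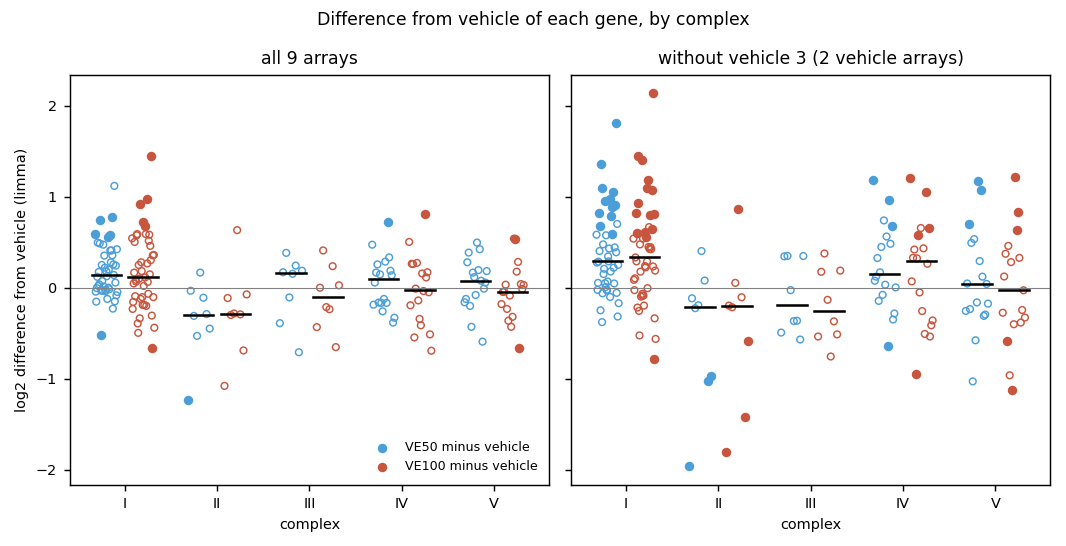
Log2 difference from vehicle (vertical axis, limma) of each of the 96 genes by complex (horizontal axis), for VE50 in blue and VE100 in red, with all 9 arrays on the left and without vehicle array 3 on the right. Each point is 1 gene, filled where it passed the study's criterion, and black lines are medians. Filled points go from 8 to 23 at 50 mg/kg and from 9 to 29 at 100 mg/kg when vehicle array 3 is left out.

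Complex I, the NADH dehydrogenase, held 45 of the 96 genes, and 6 of the 8 genes past the criterion at 50 mg/kg and 6 of the 9 at 100 mg/kg. At each dose 5 of its genes were higher and 1 lower, with a median difference of 0.14 at 50 mg/kg and 0.11 at 100 mg/kg. The higher genes were 11.1% of complex I, against 3.31% and 5.11% of all probe sets. The lower one was 2.22%, against 2.8% and 4.37%. All 5 at 50 mg/kg were accessory subunits, the small proteins that surround the catalytic core. Without vehicle array 3 the count was 13 higher and none lower at 50 mg/kg, and 14 higher and 1 lower at 100 mg/kg, with medians of 0.29 and 0.33. The higher genes were 28.9% and 31.1% of complex I, against 5.95% and 6.99% of all probe sets, and the lower ones 0% and 2.22%, against 7.52% and 9.62%. Without vehicle array 1 in its place, the medians were -0.06 and -0.03, so the direction of the complex I median depended on single vehicle arrays.

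Ndufb7, an accessory subunit of the membrane arm that faces the intermembrane space, had the smallest p of the 96 genes at 100 mg/kg. Its signal was 7.78, 8.13 and 8.58 on the vehicle arrays, 8.75, 8.87 and 8.60 at 50 mg/kg and 9.31, 9.10 and 9.0 at 100 mg/kg. The 3 groups did not overlap one another and followed the order of dose. The difference from vehicle was 0.58 ± 0.24 (SE) at 50 mg/kg and 0.97 ± 0.24 at 100 mg/kg, the latter a fold of 1.96 with an adjusted p of 0.319 (limma). Without vehicle array 3 it was 1.18 at 100 mg/kg (adjusted p 0.0275). Only 5 of the 9 arrays put Ndufb7 above the negative controls.

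Ndufb3, another accessory subunit of the membrane arm, whose human counterpart is mutated in some cases of complex I deficiency, was 8.60, 8.69 and 8.26 on the vehicle arrays. It was 8.89, 9.13 and 9.21 at 50 mg/kg and 9.20, 9.07 and 9.33 at 100 mg/kg. All 6 VE arrays lay above all 3 vehicle arrays, and the doses overlapped each other. The differences were 0.56 ± 0.21 and 0.68 ± 0.21, with adjusted p of 0.794 and 0.409. Vehicle array 3 was the lowest of all arrays here, so leaving it out lowered the differences to 0.43, no longer past the criterion, and 0.56, still past it. Together with Uqcrb, these 2 were the only members with all 6 VE arrays above all vehicle arrays, a position that 647 of all 22206 probe sets also held.

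Ndufs5, an accessory subunit on the intermembrane side of the complex, had the largest upward difference at 100 mg/kg. It was 11.25, 11.97 and 13.69 on the vehicle arrays, 13.47, 13.69 and 13.11 at 50 mg/kg and 14.33, 13.28 and 13.64 at 100 mg/kg. Vehicle arrays 1 and 2 were low, whereas vehicle array 3 lay among the VE arrays. The difference was 1.12 ± 0.53 at 50 mg/kg, which missed the criterion, and 1.45 ± 0.53 at 100 mg/kg, a fold of 2.73 with an adjusted p of 0.456. Without vehicle array 3 it was 1.81 and 2.14, with adjusted p of 0.0683 and 0.0163.

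With all arrays, a further 3 accessory subunits passed the criterion at 50 mg/kg and not at 100 mg/kg, and the difference between the doses passed it for none of them. Ndufa6, a small protein of the LYR family, was 13.16, 13.35 and 14.29 with vehicle, 14.44, 14.24 and 14.36 at 50 mg/kg and 14.09, 14.07 and 14.41 at 100 mg/kg. Ndufc2, a subunit of the membrane arm, was 14.39, 14.45 and 15.26 with vehicle, 15.73, 15.18 and 15.52 at 50 mg/kg and 14.85, 15.17 and 15.63 at 100 mg/kg. In both, vehicle arrays 1 and 2 were below every VE array and vehicle array 3 was within their range. Ndufa1, a short membrane subunit needed for assembly, was 12.01, 11.75 and 11.87 with vehicle, 12.56, 12.64 and 12.19 at 50 mg/kg and 12.75, 11.88 and 12.63 at 100 mg/kg. Its vehicle arrays were all below its VE50 arrays and overlapped 1 VE100 array. The differences at 50 mg/kg were 0.75 ± 0.29, 0.78 ± 0.30 and 0.59 ± 0.26, with adjusted p of 0.795, 0.795 and 0.817. Leaving out vehicle array 3, Ndufa6 (1.09 and 0.94) and Ndufc2 (1.06 and 0.80) passed the criterion at both doses, and Ndufa1 (0.58 and 0.54) at neither.

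Ndufb10, an accessory subunit of the membrane arm, passed at 100 mg/kg alone, with or without vehicle array 3, with signals of 8.24, 8.75 and 8.16 for vehicle, 8.14, 8.98 and 8.57 at 50 mg/kg and 9.20, 9.04 and 9.08 at 100 mg/kg. The VE100 arrays lay above the other 6, and the difference from vehicle was 0.72 ± 0.26 (adjusted p 0.451). Ndufaf2, an assembly factor that binds a late intermediate of complex I, was 4.99, 4.83 and 6.36 with vehicle, 5.99, 6.10 and 5.51 at 50 mg/kg and 6.42, 6.25 and 6.28 at 100 mg/kg. Vehicle array 3 was again high, within the range of the VE100 arrays, and no array put Ndufaf2 above the negative controls. Its difference at 100 mg/kg was 0.92 ± 0.37 (adjusted p 0.475) and 1.41 without vehicle array 3 (adjusted p 0.0196).

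The lower genes of complex I were Ndufs7 and Ndufa7. Ndufs7 is a core subunit that carries the last iron-sulfur cluster before ubiquinone. Its signal was 8.48, 9.24 and 8.52 with vehicle, 9.07, 8.52 and 8.82 at 50 mg/kg and 7.59, 8.40 and 8.25 at 100 mg/kg. The VE100 arrays lay below all others, with a difference of -0.67 ± 0.30 from vehicle (adjusted p 0.526) and -0.72 ± 0.30 from VE50. The difference from vehicle turned to 0.17 when the mean of the hybridization controls was a covariate. Ndufa7, an accessory subunit not above the negative controls on any array, was 5.89, 5.54 and 6.13 with vehicle, 5.57, 5.24 and 5.20 at 50 mg/kg and 5.36, 5.36 and 5.66 at 100 mg/kg, and its difference at 50 mg/kg was -0.52 ± 0.23 (adjusted p 0.812), and -0.38 without vehicle array 3, which did not pass the criterion.

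Ndufv1 and Ndufs1 are core subunits of the NADH-oxidising arm. Ndufv1, which binds NADH and flavin, was 14.01, 14.05 and 13.33 with vehicle, 13.62, 13.94 and 13.58 at 50 mg/kg and 13.58, 13.71 and 13.79 at 100 mg/kg. Ndufs1, which carries several iron-sulfur clusters, was 10.68, 11.16 and 10.51 with vehicle, 11.18, 10.94 and 11.30 at 50 mg/kg and 10.95, 11.76 and 11.39 at 100 mg/kg. The groups overlapped in both. Ndufv1 differed by -0.08 ± 0.24 and -0.10 ± 0.24, and Ndufs1 by 0.36 ± 0.27 and 0.58 ± 0.27, with adjusted p between 0.535 and 0.971. Neither passed the criterion with or without vehicle array 3. Among the 7 core subunits as a group, the median difference was 0.24 at 50 mg/kg and 0.36 at 100 mg/kg, with 5 of 7 above 0 at each dose. None of the 7 passed the criterion at 50 mg/kg without vehicle array 3, and 2 were higher and 1 lower at 100 mg/kg. The latter are 28.6% and 14.3%, against 6.99% and 9.62% of all probe sets.

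Complex II, succinate dehydrogenase, is the member of the chain that is also an enzyme of the citric acid cycle, and all its subunits are nuclear. Each of its 4 subunits had a lower mean than vehicle at both doses, with medians of -0.37 and -0.49. By the criterion 1 of the 4 was lower at 50 mg/kg and 0 at 100 mg/kg. That is 25% and 0%, against 2.8% and 4.37% of all probe sets. With vehicle array 3 left out, 3 of the 4 subunits (Sdha, Sdhc and Sdhd) were lower past the criterion at each dose, with medians of -0.997 and -1.01. That is 75%, against 7.52% and 9.62% of all probe sets, and 16.5% and 20.2% of those above the negative controls. Vehicle array 3 differed from vehicle arrays 1 and 2 by more than any difference between groups for each of the 4 subunits, downward for Sdha, Sdhc and Sdhd and upward for Sdhb. The median of all 8 genes was -0.30 at 50 mg/kg and -0.29 at 100 mg/kg. The latter was 0.06 with the control-probe contrast (negative less positive control median) as a covariate.

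Sdha, the flavoprotein that oxidises succinate, was 12.25, 12.45 and 10.16 on the vehicle arrays, 10.13, 10.37 and 10.67 at 50 mg/kg and 9.89, 10.79 and 10.94 at 100 mg/kg. Vehicle arrays 1 and 2 were above every VE array, and vehicle array 3 was among the VE arrays. The difference was -1.23 ± 0.54 at 50 mg/kg, a fold of 0.426 that passed the criterion with an adjusted p of 0.812, and -1.08 ± 0.54 at 100 mg/kg, which did not pass it. Without vehicle array 3 the differences were -1.96 and -1.81, with adjusted p of 0.0643 and 0.0202. The call at 50 mg/kg held in 6 of 20 alternatives.

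Sdhc, a membrane anchor that helps bind ubiquinone and heme, was also low on vehicle array 3, with 11.66, 11.94 and 9.59 for vehicle, 10.63, 10.79 and 10.90 at 50 mg/kg and 9.70, 10.65 and 10.77 at 100 mg/kg. Vehicle arrays 1 and 2 were above every VE array and vehicle array 3 below every one, and the gene was chosen for description after its values were seen. Its differences were -0.29 ± 0.54 and -0.69 ± 0.54 with all arrays, and -1.03 and -1.43 without vehicle array 3, the last with an adjusted p of 0.0428. Sdhd, the second anchor, was 11.79, 11.91 and 10.30 with vehicle, 11.15, 10.68 and 10.82 at 50 mg/kg and 10.90, 11.38 and 11.50 at 100 mg/kg, and its differences were -0.45 ± 0.40 and -0.07 ± 0.40. They were -0.97 and -0.59 without vehicle array 3, both past the criterion, with adjusted p of 0.128 and 0.27. Here too, vehicle arrays 1 and 2 exceeded every VE array while vehicle array 3 fell below them all. Sdhb, the iron-sulfur subunit, was 14.31, 14.52 and 14.98 with vehicle, 14.57, 14.12 and 14.79 at 50 mg/kg and 13.60, 14.26 and 15.07 at 100 mg/kg. It did not share the pattern, since its groups overlapped and vehicle array 3 was its highest vehicle array. The 4 Sdhaf assembly factors were not above the negative controls, and none passed the criterion with all arrays, whereas without vehicle array 3 Sdhaf4 was higher at 100 mg/kg, by 0.87.

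**Figure D2:**
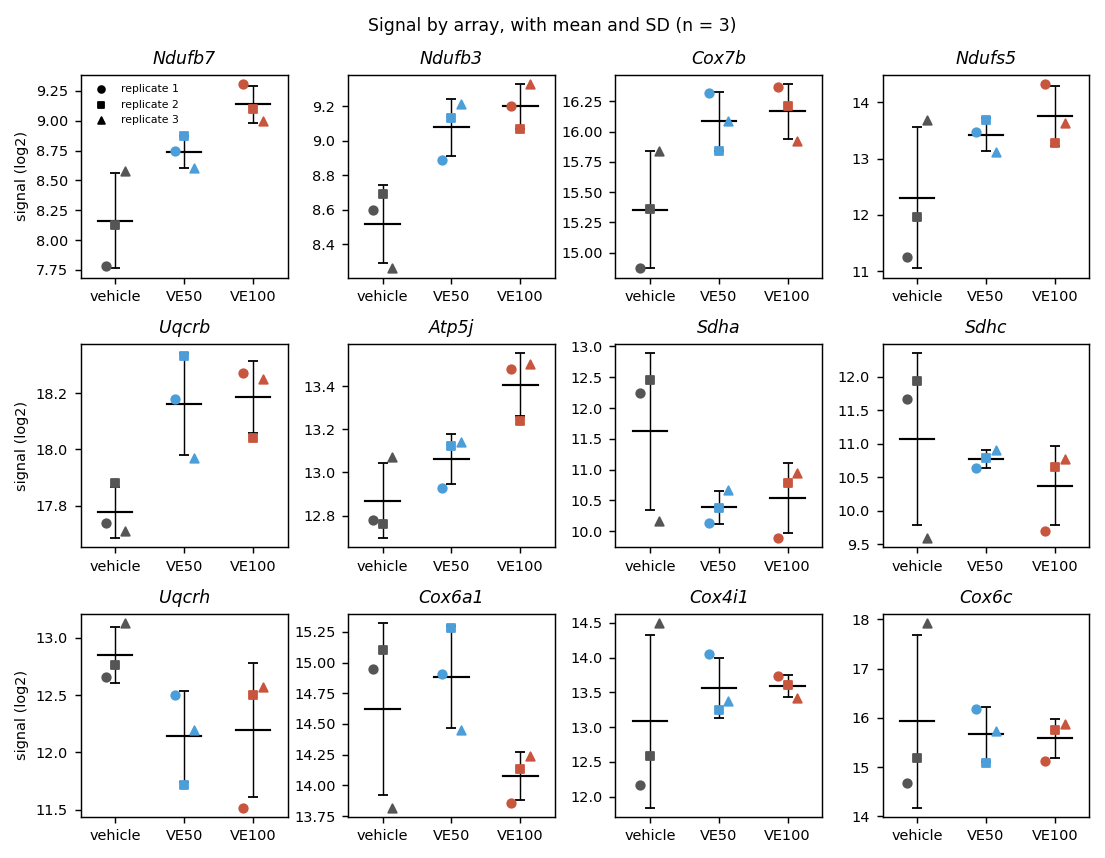
Log2 signal (vertical axes, a separate range for each gene) on each array for 12 genes, by group (horizontal axes). Circles, squares and triangles are replicates 1, 2 and 3, and black lines are the group mean and SD (n = 3). All VE arrays lie above all vehicle arrays for Ndufb3, Ndufb7 and Uqcrb and below them for Uqcrh, whereas vehicle array 3 lies among or beyond the VE arrays for Sdha, Sdhc, Ndufs5, Cox4i1 and Cox6c.

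In complex III, the cytochrome bc1 complex, none of the 8 genes passed the criterion at either dose, with or without vehicle array 3. The median difference was 0.16 at 50 mg/kg and -0.11 at 100 mg/kg, and -0.20 and -0.25 without vehicle array 3. Uqcrb, a small subunit linked to ubiquinone binding, was 17.74, 17.88 and 17.71 with vehicle, 18.18, 18.33 and 17.97 at 50 mg/kg and 18.27, 18.04 and 18.25 at 100 mg/kg. All 6 VE arrays lay above vehicle, with differences of 0.38 ± 0.20 and 0.41 ± 0.20 and adjusted p of 0.823 and 0.548.

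Uqcrh, the acidic hinge protein between cytochrome c1 and cytochrome c, was the one gene with all 6 VE arrays below all vehicle arrays, as were 398 of all probe sets. It was 12.66, 12.76 and 13.13 with vehicle, 12.50, 11.72 and 12.20 at 50 mg/kg and 11.52, 12.50 and 12.57 at 100 mg/kg. The differences were -0.71 ± 0.32 and -0.65 ± 0.32, with unadjusted p of 0.0515 and 0.0694 (limma), both short of the criterion. Vehicle array 3 was its highest array, and the differences were -0.57 and -0.51 without it.

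The catalytic Rieske iron-sulfur protein Uqcrfs1 was 12.19, 12.27 and 10.41 with vehicle, 11.82, 11.58 and 12.20 at 50 mg/kg and 11.25, 12.35 and 11.98 at 100 mg/kg. Vehicle array 3 was the lowest array, and the sign of the gene's difference depended on that array, at 0.24 ± 0.48 and 0.24 ± 0.48 with it and -0.36 and -0.37 without it. The core protein Uqcrc1, which with Uqcrc2 forms the matrix side of the complex, was 11.61, 11.75 and 11.92 with vehicle, 11.75, 11.44 and 11.77 at 50 mg/kg and 11.36, 11.40 and 11.88 at 100 mg/kg. Its groups overlapped and its differences, -0.11 ± 0.22 and -0.21 ± 0.22, were no larger than their standard error at either dose.

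In complex IV, cytochrome c oxidase, 1 of 18 genes passed the criterion against vehicle with all arrays, the same gene at both doses. This is 5.56%, against 6.12% and 9.48% of all probe sets. The count without vehicle array 3 was 3 higher and 1 lower at 50 mg/kg, and 4 higher and 1 lower at 100 mg/kg. The higher genes were then 16.7% and 22.2% of complex IV, against 5.95% and 6.99% of all probe sets. The lower ones were 5.56% at each dose, against 7.52% and 9.62%. Cox7b, a small nuclear subunit, was 14.87, 15.36 and 15.84 with vehicle, 16.32, 15.84 and 16.09 at 50 mg/kg and 16.37, 16.21 and 15.92 at 100 mg/kg. The VE100 arrays lay above all vehicle arrays, and the lowest VE50 array equalled the highest vehicle array, which was vehicle array 3. The differences were 0.73 ± 0.28 and 0.81 ± 0.28, folds of 1.65 and 1.75, with adjusted p of 0.795 and 0.439. Without vehicle array 3 they were 0.97 and 1.05.

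Cox6a1, the isoform of subunit 6a found in most tissues, was 14.95, 15.10 and 13.82 with vehicle, 14.91, 15.28 and 14.45 at 50 mg/kg and 13.86, 14.13 and 14.24 at 100 mg/kg. The VE100 arrays lay below the VE50 arrays and below vehicle arrays 1 and 2, and vehicle array 3 was lower still. The difference was 0.26 ± 0.35 at 50 mg/kg and -0.55 ± 0.35 at 100 mg/kg, neither past the criterion, and -0.80 ± 0.35 between the doses, which passed it. Without vehicle array 3 the VE100 difference from vehicle was -0.95, past the criterion with an adjusted p of 0.0978. In the authors' deposited table of F-tests over conditions, Cox6a1 had the smallest p of the 96 genes, 0.0015, with an FDR of 0.0558.

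Cox4i1, the regulatory subunit 4 isoform of most tissues, was 12.17, 12.59 and 14.50 with vehicle, 14.05, 13.25 and 13.38 at 50 mg/kg and 13.74, 13.61 and 13.42 at 100 mg/kg. Vehicle arrays 1 and 2 were below every VE array and vehicle array 3 above every one. Its differences were 0.47 ± 0.51 and 0.50 ± 0.51, and 1.18 and 1.21 without vehicle array 3, with an adjusted p of 0.0534 for the last. Cox6c, chosen after its values were seen, had the widest spread within vehicle, with 14.68, 15.18 and 17.93 there, 16.19, 15.08 and 15.74 at 50 mg/kg and 15.13, 15.76 and 15.87 at 100 mg/kg. Cox5a, a matrix-side subunit, was 13.03, 13.30 and 13.36 with vehicle, 13.45, 13.07 and 13.34 at 50 mg/kg and 13.27, 13.50 and 13.71 at 100 mg/kg, and differed by 0.06 ± 0.22 and 0.26 ± 0.22.

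The 7 isoforms of complex IV known mainly from muscle, testis or lung were Cox4i2, Cox6a2, Cox6b2, Cox7a1, Cox7b2, Cox8b and Cox8c. None was above the negative controls, and their signals ran from 2.15 to 6.13. None passed the criterion in the limma fit, with or without vehicle array 3. All 8 striated muscle markers were likewise not above the negative controls, with an array median of 3.82 to 4.70. At 100 mg/kg 1 of them was higher past the criterion (12.5%, against 5.11% of all probe sets). Without vehicle array 3, 2 were higher at that dose (25%, against 6.99%).

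In complex V, none of 17 genes passed the criterion at 50 mg/kg, and 1 was higher and 1 lower at 100 mg/kg. Each of the latter is 5.88%, against 5.11% and 4.37% of all probe sets. The counts became 3 higher and none lower at 50 mg/kg without vehicle array 3, and 3 higher and 2 lower at 100 mg/kg. The higher genes were then 17.6% of complex V at each dose, against 5.95% and 6.99% of all probe sets. The lower ones were 0% and 11.8%, against 7.52% and 9.62%. Atp5b, the beta subunit that holds the catalytic sites, was 16.58, 16.76 and 17.18 with vehicle, 16.96, 16.11 and 17.08 at 50 mg/kg and 16.35, 17.02 and 17.01 at 100 mg/kg. Atp5a1, the alpha subunit, was 17.71, 17.54 and 17.34 with vehicle, 17.47, 17.20 and 17.44 at 50 mg/kg and 17.02, 17.46 and 17.57 at 100 mg/kg. The groups overlapped for both, and their differences lay between -0.18 and -0.05.

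Atp5j, coupling factor 6 of the peripheral stalk, was 12.78, 12.76 and 13.07 with vehicle, 12.93, 13.12 and 13.14 at 50 mg/kg and 13.48, 13.24 and 13.50 at 100 mg/kg. The VE100 arrays lay above all other arrays. The difference from vehicle was 0.19 ± 0.20 at 50 mg/kg and 0.54 ± 0.20 at 100 mg/kg, a fold of 1.45 with an adjusted p of 0.456, and 0.64 without vehicle array 3. Atp5h, subunit d of the same stalk, was 14.40, 14.81 and 16.64 with vehicle, 16.09, 15.69 and 15.56 at 50 mg/kg and 15.82, 15.80 and 15.85 at 100 mg/kg. Its vehicle arrays 1 and 2 were below every VE array and vehicle array 3 above every one, which gave 0.54 ± 0.47 at 100 mg/kg with all arrays and 1.22 without vehicle array 3 (adjusted p 0.0298).

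Atp5l, subunit g of the membrane part, was 11.92, 11.84 and 12.73 with vehicle, 11.64, 11.14 and 11.93 at 50 mg/kg and 11.27, 11.65 and 11.57 at 100 mg/kg. Its difference at 100 mg/kg was -0.67 ± 0.30 (adjusted p 0.526). Vehicle array 3 was the highest of the 9 arrays, and without it the difference was -0.38 and did not pass the criterion. The medians of complex V were 0.08 and -0.04, and 0.04 and -0.03 without vehicle array 3.

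Between the doses, the median difference of VE100 from VE50 over the 96 genes was -0.04, against -0.0033 for all probe sets, with 40 genes above 0. By the study's criterion no gene was higher and 2 were lower, against 1.49% and 1.43% of all probe sets. These were Ndufs7 and Cox6a1, whose values are given above, and their adjusted p was 1. The arrays of the doses did not overlap for 4 genes with VE100 higher, which were Atp5j, Ndufaf2, Ndufb10 and Ndufb7, and for 3 with VE100 lower, which were Atp5d, Cox6a1 and Ndufs7. The background was 4.99% and 5.01%, so the shares among the 96 genes, 4.17% and 3.12%, were below it. Among the genes above the negative controls the shares were 4.05% and 4.05%, against 3.05% and 6.24% of such probe sets. The comparisons of VE50 and of VE100 with vehicle share the same vehicle arrays, so a like difference at both doses is not independent evidence.

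The position of vehicle array 3 within these genes was measured directly. It exceeded the mean of vehicle arrays 1 and 2 by more than 1 for 23 of the 96 genes (24.0%), against 10.2% of all probe sets and 10.6% of those above the negative controls. It was lower by more than 1 for 13 genes (13.5%), against 10.8% and 26.7%. The highest excess was in Cox6c (3.00), Ndufb4 (2.94) and Ndufa5 (2.63), and the lowest values were in Sdhc (-2.21), Sdha (-2.19) and Atp5g2 (-2.09), genes named here for these values.

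Against vehicle arrays 1 and 2 alone, all 6 VE arrays were higher for 25 genes (26.0%), compared with 8.72% of all probe sets, and lower for 9 (9.38%), compared with 9.47%. Among the genes above the negative controls the shares were 32.4% and 12.2%, compared with 12.4% and 20.1% of such probe sets. In 23 of the 25 vehicle array 3 was also above vehicle arrays 1 and 2, and in 8 of the 9 it was also below them. Among all probe sets this held for 1471 of 1937 upward and 1815 of 2103 downward. The 25 comprised 16 genes of complex I, 4 of complex IV, 3 of complex V and 2 of complex III. The 9 were Sdha, Sdhc, Sdhd, Uqcr10, Uqcrh, Ndufv1, Cox7a2l, Atp5d and Atp5g2. For 27 genes (28.1%, against 16.6% of all probe sets) the 6 VE arrays all lay within the range of the 3 vehicle arrays. Among the genes above the negative controls this share was 33.8%, against 24.2% of such probe sets.

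Several array-level measures moved with this split. The share of all probe sets above the negative controls was 20.2% and 20% on vehicle arrays 1 and 2, 14.3% on vehicle array 3 and 15% to 17.8% on the VE arrays. The level below which 95% of the negative controls fell was 9.10 and 9.12 on vehicle arrays 1 and 2. It was 9.76 on vehicle array 3 and 9.35 to 9.74 on the VE arrays. The mean of the 4 hybridization control probe sets was 10.84 and 10.73 on vehicle arrays 1 and 2, 11.01 on vehicle array 3 and 10.93 to 11.44 on the VE arrays. The median of the negative controls less that of the positive controls was -3.88 and -3.79 on vehicle arrays 1 and 2, -3.41 on vehicle array 3, and -3.53 to -3.12 on the VE arrays. The hybridization control mean and the control-probe contrast were each fitted as a covariate. Both were lower on vehicle arrays 1 and 2 than on every VE array, so these fits cannot separate them from treatment. The part of these measures in the results was not tested. With the hybridization control mean as a covariate, 0 genes passed the criterion at 50 mg/kg and 4 at 100 mg/kg in the limma fit, and those 4 were none of the 9 called without the covariate. With the control-probe contrast as a covariate, 1 of the 8 calls at 50 mg/kg and 1 of the 9 at 100 mg/kg were kept, both of them Ndufb3.

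**Figure D3:**
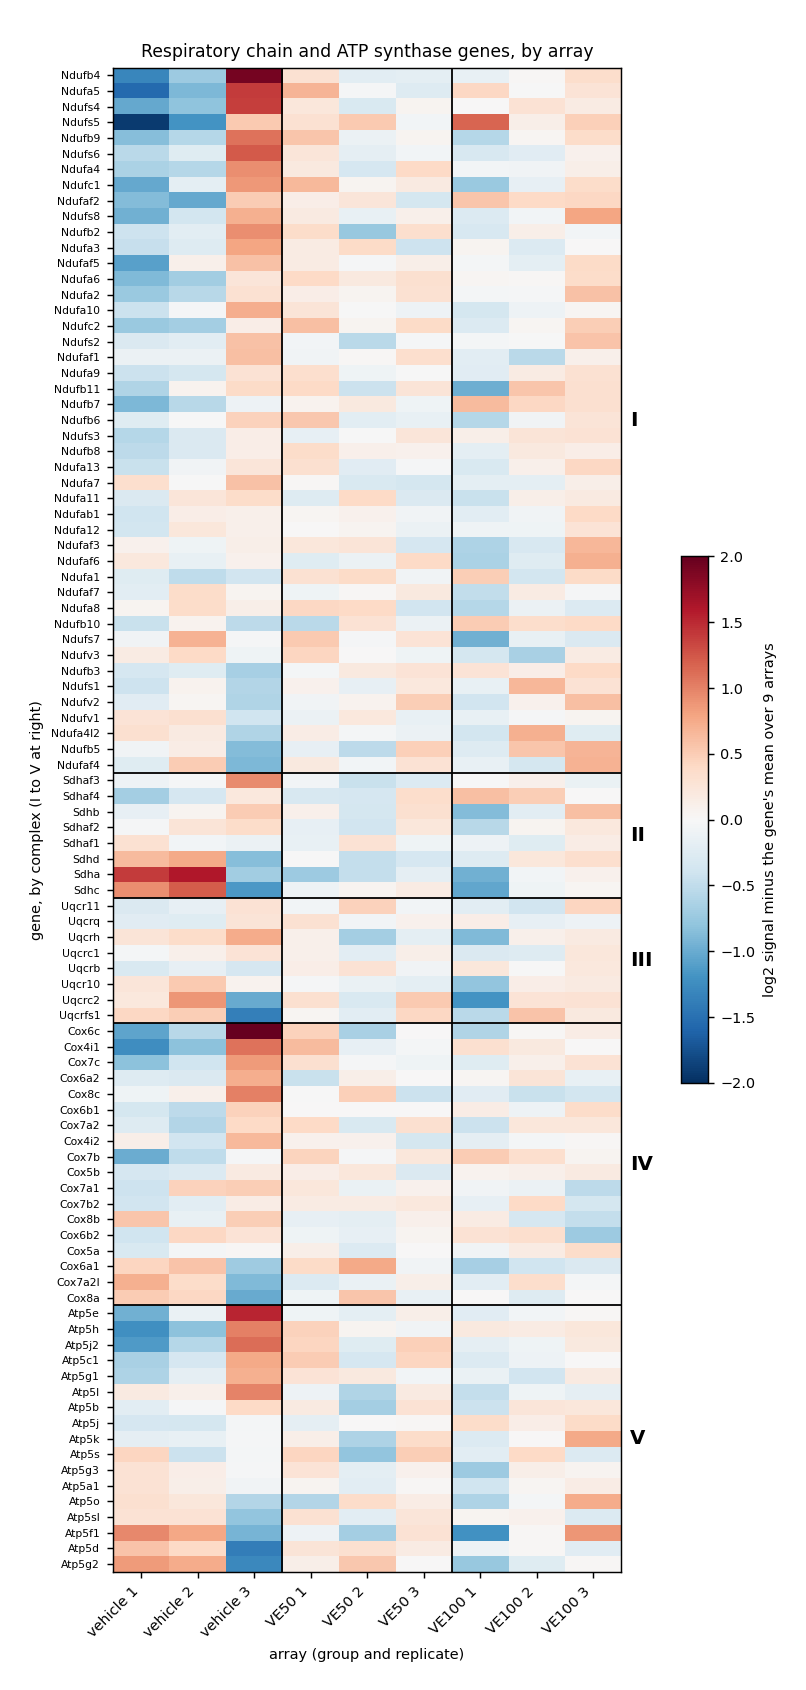
Log2 signal of each of the 96 genes (rows, by complex I to V and, within a complex, by the difference of vehicle array 3 from vehicle arrays 1 and 2) on each of the 9 arrays (columns), as the difference from the gene's mean over all arrays. Red is higher and blue lower, and the colour scale ends at 2 in either direction. Vehicle array 3 has the deepest red in Cox6c and Ndufb4, and vehicle arrays 1 and 2 stand apart from it in most rows at the top of complexes I, IV and V.

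Genes that serve the chain were described from lists. Assembly and copper delivery genes of complexes III and IV numbered 23 on the array. At each dose 1 was lower past the criterion (4.35%, against 2.8% and 4.37% of all probe sets) and none higher. It was Bcs1l, a chaperone that inserts the Rieske protein into complex III, at 7.61, 7.45 and 7.33 with vehicle, 6.61, 6.86 and 6.84 at 50 mg/kg and 6.57, 6.51 and 6.27 at 100 mg/kg. All 6 VE arrays were below vehicle, with differences of -0.69 ± 0.20 and -1.01 ± 0.20 (adjusted p 0.794 and 0.305), and its signal was above the negative controls on no array. Its differences without vehicle array 3 were -0.76 and -1.08. The list then had 5 genes higher and 3 lower at 50 mg/kg (21.7% and 13%, against 5.95% and 7.52% of all probe sets). At 100 mg/kg it had 3 higher and 3 lower (13% each, against 6.99% and 9.62%). With all arrays, none of 7 further complex I assembly genes, 3 of complex V, 10 adenine nucleotide, phosphate and uncoupling carriers, or the pair cytochrome c and cytochrome c1 passed the criterion against vehicle at either dose. Cytochrome c (Cycs) was higher without vehicle array 3 at both doses, by 0.93 and 0.61. The complex V assembly factor Atpaf2 was then lower at both (-0.72 and -0.93), and the complex I assembly factor Ecsit at 100 mg/kg (-0.60). Of the carriers, the phosphate carrier Slc25a3 was lower at both (-0.74 and -0.61) and Ucp2 at 100 mg/kg (-2.92). These 5 genes are named after their values were seen.

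Of 11 genes of coenzyme Q synthesis, Coq2, which joins the ring to its tail, was lower at 50 mg/kg (-0.71 ± 0.31) and the other 10 did not pass. That is 9.09%, against 2.8% of all probe sets. Coq2 was lower at both doses without vehicle array 3 (-1.09 and -0.95), as was 1 more gene of the list at 50 mg/kg. The shares were then 18.2% and 9.09%, against 7.52% and 9.62%. Of 17 regulators of mitochondrial biogenesis, Tfb2m, a mitochondrial transcription factor, was higher at 100 mg/kg, at 10.25, 10.55 and 9.71 with vehicle and 10.47, 10.98 and 11.21 with VE100. Its difference was 0.72 ± 0.28, and 0.49 without vehicle array 3, which did not pass. With all arrays it was the only call against vehicle in this list, 5.88% against 5.11% of all probe sets. Without vehicle array 3 the list had 2 higher and 1 lower at 50 mg/kg (11.8% and 5.88%, against 5.95% and 7.52%). At 100 mg/kg it then had 1 other gene higher and 1 lower (5.88% each, against 6.99% and 9.62%). Among 13 citric acid cycle genes, 1 was higher at 50 mg/kg and 1 lower at 100 mg/kg. Each is 7.69%, against 3.31% and 4.37% of all probe sets. Without vehicle array 3, 2 were higher and 2 lower at 50 mg/kg (15.4% each, against 5.95% and 7.52%). At 100 mg/kg 1 was then higher and 3 lower (7.69% and 23.1%, against 6.99% and 9.62%). The lower one with all arrays was Ogdh, a subunit of the 2-oxoglutarate dehydrogenase complex, at 11.80, 11.69 and 11.91 with vehicle and 10.24, 10.87 and 10.90 with VE100. Its difference there was -1.13 ± 0.28 (adjusted p 0.319), and -1.08 without vehicle array 3.

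Among 75 mitochondrial ribosomal proteins, 2 were higher and 1 lower at 50 mg/kg, and 3 higher and 2 lower at 100 mg/kg, with medians of 0.03 and -0.10. These are 4% and 6.67% of the list, against 6.12% and 9.48% of all probe sets. When vehicle array 3 was left out, 7 were higher and 9 lower at 50 mg/kg, and 6 higher and 13 lower at 100 mg/kg. The shares were then 9.33% and 12% at 50 mg/kg, against 5.95% and 7.52% of all probe sets. At 100 mg/kg they were 8% and 17.3%, against 6.99% and 9.62%. Those 4 of smallest p in a comparison with vehicle are given here by their values. Mrpl55 was 7.55, 7.76 and 8.09 with vehicle and 6.38, 7.04 and 7.39 at 100 mg/kg, a difference of -0.86 ± 0.29. Mrpl34 differed by -0.69 ± 0.24 at 100 mg/kg and Mrpl44 by -0.55 ± 0.22 at 50 mg/kg. Mrpl19 differed upward, by 0.74 ± 0.31 and 0.75 ± 0.31. Each of these differences also passed the criterion without vehicle array 3. These 4 proteins of the large mitochondrial ribosomal subunit were each above the negative controls on at most 1 array.

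Markers of other cell types were mostly not above the negative controls. Of 8 macrophage markers, 1 was above them and 2 were lower past the criterion at 100 mg/kg, with a list median of -0.76 at that dose and array medians of 6.38 to 7.20 with vehicle, 6.27 to 7.71 at 50 mg/kg and 5.64 to 6.66 at 100 mg/kg. The 2 are 25% of the list, against 4.37% of all probe sets. At 50 mg/kg 1 was lower (12.5%, against 2.8%), with a list median of 0.005. On leaving out vehicle array 3, 5 of the 8 were lower at 100 mg/kg (62.5%, against 9.62%), with a median of -0.97. The part of any cell type in the differences above was not tested. Lists for lymphocytes, neutrophils, endothelium, stellate cells, cholangiocytes, erythroid cells and adipocytes held at most 1 marker each above the negative controls. With all arrays, 1 of 8 lymphocyte markers was higher at each dose (12.5%, against 3.31% and 5.11% of all probe sets). At 50 mg/kg 1 of 6 neutrophil markers was lower (16.7%, against 2.8%). At 100 mg/kg 1 of 3 erythroid markers was higher (33.3%, against 5.11%). Without vehicle array 3, 2 of 6 endothelial and 1 of 5 cholangiocyte markers were lower at each dose (33.3% and 20%, against 7.52% and 9.62%). Of 7 hepatocyte markers 1 was then higher at 50 mg/kg (14.3%, against 5.95%).

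The authors' deposited table of genes passing their filter at 100 mg/kg held 8 of the 96 genes (8.33%), against 1815 probe sets (8.17% of all). In the authors' deposited table, Ndufs5 had a fold of 3, Ndufaf2 2.57, Ndufb7 1.95, Ndufb10 1.86, Cox7b 1.77, Atp5j 1.65 and Ndufb3 1.5. Cox8c was the one lower gene in the authors' deposited table, at -1.31, and its limma difference of -0.69 ± 0.32 missed the criterion with an unadjusted p of 0.0566. The 7 higher genes in the authors' deposited table are the 7 that were higher in the limma fit, which used the same arrays. The 2 lower genes of the limma fit, Atp5l and Ndufs7, were not in the authors' deposited table.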

How the data were processed

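Liver RNA of 9 mouse arrays was analysed in 3 groups of 3. The log2 signal per probe set was made by the authors with SST-RMA (Transcriptome Analysis Console 4.0.2), according to the series' design text, a step that subtracts background, puts arrays on one scale and joins probes, and so can set small differences. The deposited value table of log2 values, which also holds control probe sets, was made with RMA and Transcriptome Analysis Console 4 per the submitters' processing notes. The authors' deposited p-values and FDR values, and their signed fold changes (a score below -1 where lower), come from one-way ANOVA with an empirical Bayes step, per the series' design text. Array precision is limited by the number of arrays.

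All 22206 probe sets were fitted in limma 3.58.1 (R 4.3.3) with a mean per group over the 9 arrays, and p-values were adjusted by Benjamini-Hochberg over all of them. The fit was tested on simulated data. Genes were named if they passed a threshold, with at most 10 per comparison by smallest p. They were also named if they were on a list of 10 subunits, not all of them catalytic. The third reason was the highest or lowest difference of a complex among the genes above the negative controls. From the other lists up to 4 genes that passed the criterion were named. Detection was set at the 95th percentile of the negative controls on 3 arrays or more. The genes and lists were chosen with earlier results of these data known. Leaving out each array, a replicate block, array weights, other scalings, a signal filter and array-level covariates were tried. Batches were not modelled, since scan dates are not given in the sources used here. The result of 1 citric acid cycle gene is not reported here.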

Additional observations from a re-analysis of the deposited data

How the results depend on the processing

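The count of the 96 genes past the study's criterion at 50 mg/kg was 8 with all arrays. It was 20 with array weights and 5 in a refit limited to probe sets above the negative controls. It was 4 in the deposited value table and 0 with the hybridization control mean as a covariate. In the main fit, 7 genes above the negative controls passed. Leaving out single arrays gave 2 to 23, the highest without vehicle array 3 and the lowest without vehicle array 1. At 100 mg/kg, the count of 9 was 24 with array weights, 15 with quantile normalization, 14 with the negative less positive control median as a covariate and 4 with the hybridization control mean. The covariates called other genes, since 8 of the 9 calls were lost with the negative less positive control median and all 9 with the hybridization control mean. Single arrays left out gave 5 to 29, the extremes without VE100 array 1 and without vehicle array 3. Between the doses, the count of 2 was 1 with median-centred arrays, with the signal filter and with the hybridization control mean, under which both of the 2 calls were lost, and 0 to 3 without single arrays. Deviations from the group means correlated at -0.24 to 0.21 between same-numbered arrays of different groups. Differently numbered arrays were not compared, so whether the replicate numbers pair the samples is not settled. With the replicate block the counts were 4, 8 and 2. The Ndufs7 difference at 100 mg/kg reversed to 0.17 with the hybridization control mean, and that of Sdhd to 0.95 with the negative less positive control median. The causes were not tested. The median difference of the 96 genes ranged from -0.04 to 0.16 at 50 mg/kg, from -0.08 to 0.19 at 100 mg/kg and from -0.13 to 0.05 between the doses over 20 alternatives, each change within the spread of array medians (SD 0.20). Over the named genes and complexes, 1648 values were counted as unchanged, 140 lost the threshold, 51 gained it, 130 moved and 2 reversed. For a gene, unchanged meant the same direction and side of the threshold. For the median of a complex it meant a change below the spread of its array medians within groups, even where the direction turned. Genes not above the negative controls have limited precision in every fit.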

Other observations

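Some single calls were kept in nearly all of 20 alternatives and others in few. At 100 mg/kg Ndufb3 kept its call in 19, with differences of 0.55 to 0.82, and Ndufb7 in 18, with 0.53 to 1.18. Ndufb10 and Cox7b kept theirs in 16, and Ndufs5 in 15, with a lowest difference of 0.01 under a control-probe covariate. Ndufs7 kept its call in 7, and at 50 mg/kg Sdha did so in 6.

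The genes with promoter entries and all 6 VE arrays above vehicle arrays 1 and 2 numbered 20. The NRF1 letters were in 0 of them, the ETS letters in 6, the YY1 letters in 4 and the Sp1 letters in 7. Of 8 genes with all VE arrays below vehicle arrays 1 and 2, the same letters were in 1, 2, 0 and 3. These groups were formed from the measured values, so the counts are a description.

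In the deposited F-tests over conditions, the authors' deposited table gave a p under 0.05 for 19 of the 96 genes (19.8%), against 16.3% of all probe sets, and no FDR below 0.0558 among them.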
